A study of Homo sapiens with 20 samples.

Results

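The RNAs described here are 314 genes whose symbols begin with LINC and a digit, of 1939 such genes among the 58870 genes quantified by RNA-seq in A375 and 1205Lu cells, which are established human melanoma cell lines. They were chosen by their measured levels: a gene entered when its mean reached 0.5 CPM (a gene's count scaled to the same total in every sample) in at least 1 of 4 groups. In each cell line, the groups were 3 samples with non-targeting siRNAs (si-NT) and 3 samples with siRNAs against FOSL1 (si-FRA1), the gene that encodes FRA1. Cut&Run, which recovers the DNA that an antibody-bound protein occupies, was done in each line with 3 FRA1 samples and 1 IgG sample, for which the labels name no siRNA. The labels name no other agent or allele, the time after transfection is not given in the sources used here, and nothing says that the 3 samples of a group came from separate cultures, so p-values measure only the spread between these samples, which may be technical.

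LINC is the symbol given to long intergenic non-coding RNA genes for which no function or related gene has supplied a name. Such RNAs are spliced and polyadenylated like mRNAs but are not known to encode a conserved protein, are usually present at far lower levels than mRNAs, and are often restricted to particular cell types. Some act on the gene next to them, some act in the cytoplasm by binding proteins or microRNAs, and for many no function is known. FRA1 is a FOS family member of the AP-1 transcription factor, which binds the 7-base motif TGACTCA, or TGAGTCA on the other strand, as a dimer with a JUN protein.

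Of the 1625 LINC-named genes that stayed below the threshold, 271 had no count in any sample. The gene types deposited with the counts called 252 of the 314 members lincRNA, 25 processed transcripts, 16 antisense RNAs and 10 transcribed unprocessed pseudogenes. All were matched by identifier to GENCODE v44, in which 22 have another name and 3 are now listed as protein-coding. Just inside the threshold lay LINC01978 with a highest group mean of 0.501 CPM, LINC00861 with 0.506 and LINC02606 with 0.506, and just outside it lay LINC01534 with 0.498, LINC00324 with 0.494 and LINC02600 with 0.493. The median of the highest group mean was 1.42 CPM, and 40 members reached 10 CPM. The median distance between a start of a member and the nearest protein-coding start was 42786 bp. Another annotated gene was overlapped by 133 members on the opposite strand and by 76 on their own strand. How the counting used strand is not given in the sources used here, so the levels of these overlapping members are uncertain.

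The samples held 20573412 to 32518903 counts each. FOSL1 mRNA was at 424 ± 8.76 CPM in A375 si-NT and 25.9 ± 0.146 in si-FRA1 samples (SD, n = 3 each), and at 474 ± 6.47 and 67.8 ± 3.32 CPM in 1205Lu cells, so the silenced gene followed the labels in every group. In bulk RNA, fewer cells that express a gene and less RNA per cell cannot be told apart. Of the melanocytic markers, SOX10 was at 45.0 CPM in A375 and 894 CPM in 1205Lu si-NT samples. S100B was at 1.02 and 418 CPM and MITF at 53.4 and 3.48 CPM in these samples. PMEL, MLANA, TYR, DCT and TYRP1 were all below 1 CPM in the si-NT samples of both lines. Of the markers listed for dedifferentiated melanoma, AXL was at 731 and 488 CPM and EGFR at 221 and 68.4 CPM. WNT5A was at 75.4 and 27.1 CPM and NGFR at 7.95 and 3.05 CPM. The epithelial and leukocyte markers EPCAM, PTPRC and CD3E were below 0.5 CPM, while KRT18 (1498 and 75.5 CPM) and CD68 (79.8 and 16.9 CPM) were detected in si-NT samples of A375 and 1205Lu cells.

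LINC-named RNAs differed widely between the cell lines. Since the members were selected on these levels, the following values are a description without a test. Summed over all members, they made up 1787 ± 24.6 CPM in A375 si-NT, 1830 ± 8.08 in A375 si-FRA1, 1031 ± 6.13 in 1205Lu si-NT and 1111 ± 6.03 in 1205Lu si-FRA1 samples (SD, n = 3 each). The threshold was reached in both lines by 131 members, in A375 groups alone by 94 and in 1205Lu groups alone by 89. The share that reached it in 1 line alone was 58.3%, against 45.0% of 2346 other long non-coding RNA genes and 14.2% of 14647 protein-coding genes chosen by the same threshold. In si-NT samples the lines differed by more than 4-fold for 35.4% of members, 24.3% of the other long non-coding RNA genes and 17.96% of the protein-coding genes. The protein-coding genes had a far higher median of 27.1 CPM, but that of the other long non-coding RNA genes was 1.39 CPM, close to that of the members.

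**Figure D1:**
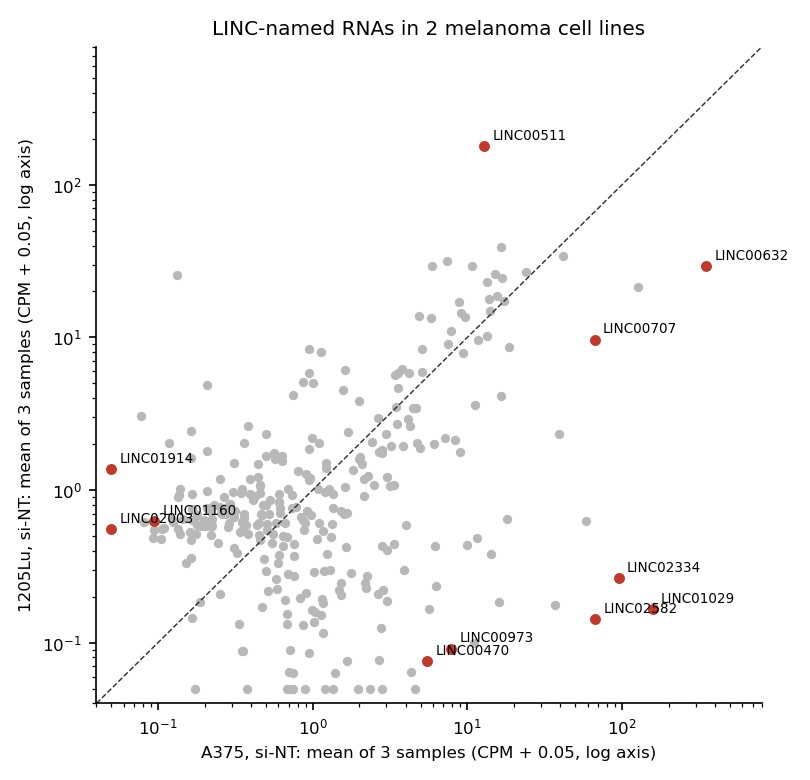
Mean CPM in si-NT samples of A375 (x axis) and 1205Lu cells (y axis), both on a log axis with 0.05 CPM added, with 1 point per member and the dashed line at equal levels. LINC01029, LINC02582, LINC02334 and LINC00973 lie far below the line, and LINC00511, LINC01914 and LINC02003 lie above it.

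The members with the highest level per kb of annotated exon over all 12 samples were LINC01145, LINC00888, LINC00680, LINC01029, LINC02582, LINC02334, LINC01347 and LINC00632. For LINC01145, LINC00680, LINC00888 and LINC01347, GENCODE v44 leaves exons of only 143, 181, 421 and 355 bp under the matched identifier and lists another gene of the same symbol over it, so their levels per length cannot be compared with the others. LINC01029 had 14.8 CPM per kb, LINC02582 12.01, LINC02334 8.83 and LINC00632 8.14. LINC01029 (18:77970637-77993731, minus strand, GRCh38) was at 159, 159 and 156 CPM in the A375 si-NT samples and at 109, 105 and 104 CPM with si-FRA1, but had only 3 to 6 counts in every 1205Lu sample. LINC02334 (13:37934298-38066444) was at 92.8, 99.3 and 93.8 CPM in A375 si-NT and at 133, 134 and 131 CPM in si-FRA1 samples, and had 4 to 7 counts per 1205Lu sample. LINC02582 (18:73324941-73349879) followed the same line difference with means of 67.2 and 52.4 CPM in A375 and 0.0921 and 0.0961 CPM in 1205Lu cells. The A375 groups of each of these RNAs did not overlap, and all 3 passed the adjusted p but stayed below the 2-fold limit used for calls (log2 fold changes of -0.55, 0.50 and -0.33).

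LINC00632 (X:140709562-140793215), the host gene of the circular RNA CDR1-AS, was the most abundant member in counts. It was at 373, 333 and 350 CPM in A375 si-NT, 525, 521 and 528 in A375 si-FRA1, 30.3, 27.6 and 29.8 in 1205Lu si-NT and 35.8, 32.0 and 34.9 in 1205Lu si-FRA1 samples. The si-FRA1 samples lay above the si-NT samples in both lines, by 0.60 ± 0.03 on the log2 scale in A375 (SE, adjusted p = 6.4e-15, edgeR) and 0.19 ± 0.06 in 1205Lu cells (adjusted p = 0.0178), both below the fold limit. Linear and circular RNA of the locus cannot be told apart in these counts. LINC00511, an RNA described as raised in several cancers, had the opposite bias, with 12.8 ± 0.486 CPM in A375 and 180 ± 3.87 CPM in 1205Lu si-NT samples.

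Some members were present in 1 line and absent from the other, with both groups of the other line below 0.05 CPM. This held for 19 members present in A375 and 4 present in 1205Lu cells. LINC00973 had 171 to 314 counts in the A375 samples and 0 to 2 in the 1205Lu samples, LINC00470 had 118 to 237 and 0 to 3, and LINC01203 had 89 to 139 and 0 to 3. LINC00993 (99 to 222 counts) and LINC02506 (51 to 140 counts) had no count in any 1205Lu sample. The converse group was small and low. LINC01914 had 30 to 69 counts in 1205Lu and at most 1 in A375 samples, LINC01160 had 7 to 30 and at most 2, and LINC02003, which lies within LINC00511 on the opposite strand, had 9 to 22 and at most 2. LINC01978 completes it.

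FRA1 silencing was then compared with si-NT within each cell line, to ask which of these RNAs depend on FRA1. A gene was called when its p, from the quasi-likelihood test of edgeR and adjusted over all genes by Benjamini-Hochberg, was under 0.05 and its log2 fold change exceeded 1 in size, and fold changes are si-FRA1 minus si-NT. In A375 cells, 229 members had enough counts to be tested and 85 did not. Of the 229, 10 were higher upon silencing, against 2.77% of all genes called higher, and 14 were lower, against 2.79% of all genes called lower. By adjusted p alone 27 were higher and 33 lower, beside 25.7% and 25.1% of all genes. The median log2 fold change of the members was 0.00030 and that of all genes tested -0.0026. The members were measured less precisely, with a median standard error of 0.313 against 0.0923 for all genes, at a median of 36.2 counts per sample against 364. Of the 10 higher members 6, and of the 14 lower members 4, reached 0.5 CPM in 1 group alone and so entered only through the group in which they were high. These were LINC00670, LINC01508, LINC01594, LINC01929, LINC02015 and LINC02163 among the higher and LINC01415, LINC01424, LINC01537 and LINC01619 among the lower members. For them a difference was built into the choice, so their values below, and the omissions in which a call held, are a description without a p. The counts of calls support nothing about the class.

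In 1205Lu cells 216 members were tested and 98 were not. The count was 3 higher (background 1.09%) and 3 lower (background 2.04%), and by adjusted p alone 20 higher and 14 lower, beside 20.6% and 19.9% of all genes. The median log2 fold change was -0.11 for members and -0.0048 for all genes. Of these calls, 2 of the 3 higher (LINC00052 and LINC02620) and 1 of the 3 lower members (LINC01909) had reached the threshold in 1 group alone and are likewise given as a description. Among other long non-coding RNA genes, 2.76% were called higher and 4.32% lower in A375 cells, and 1.03% and 3.30% in 1205Lu cells.

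**Figure D2:**
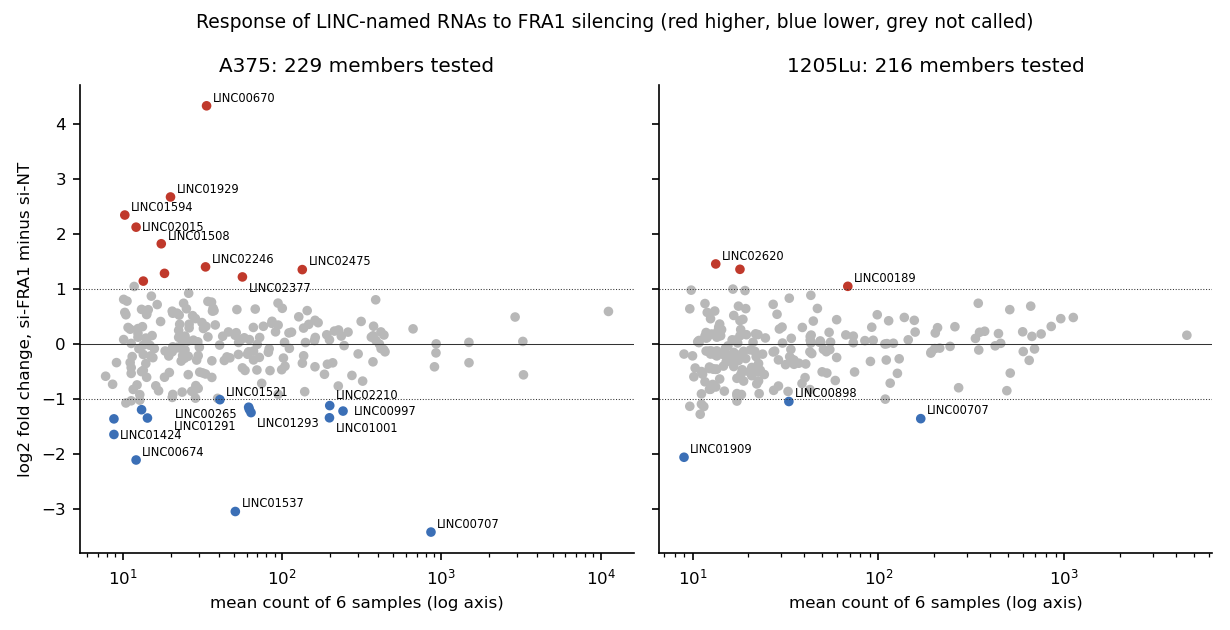
Log2 fold change (si-FRA1 minus si-NT, y axis) against the mean count of the 6 samples of the line (log x axis) for the members tested in A375 (left) and 1205Lu cells (right), with dotted lines at the fold limit. LINC00707 is the only member in blue in both panels.

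LINC00707, an RNA reported to favour growth in several cancers, was the only member called in both lines. It lies on the plus strand of chromosome 10 (10:6779549-6842906), 199248 bp from the nearest protein-coding start, that of PRKCQ. In A375 cells its level was 64.0, 65.9 and 70.1 CPM in si-NT and 6.52, 4.82 and 7.01 CPM in si-FRA1 samples, from 1383 to 1654 counts down to 115 to 212. In 1205Lu cells it was 11.2, 8.59 and 9.02 CPM in si-NT and 4.28, 3.53 and 3.81 CPM in si-FRA1 samples. The groups did not overlap in either line, and the silenced A375 samples lay between the si-NT and si-FRA1 samples of 1205Lu cells. The log2 fold change was -3.41 ± 0.08 in A375 (SE, adjusted p = 3.24e-20, edgeR) and -1.35 ± 0.15 in 1205Lu cells (adjusted p = 3.03e-07), and both calls held without any 1 of the 6 samples. The difference between the lines was itself called, at 2.07 ± 0.18 (adjusted p = 1.17e-09, edgeR interaction).

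**Figure D3:**
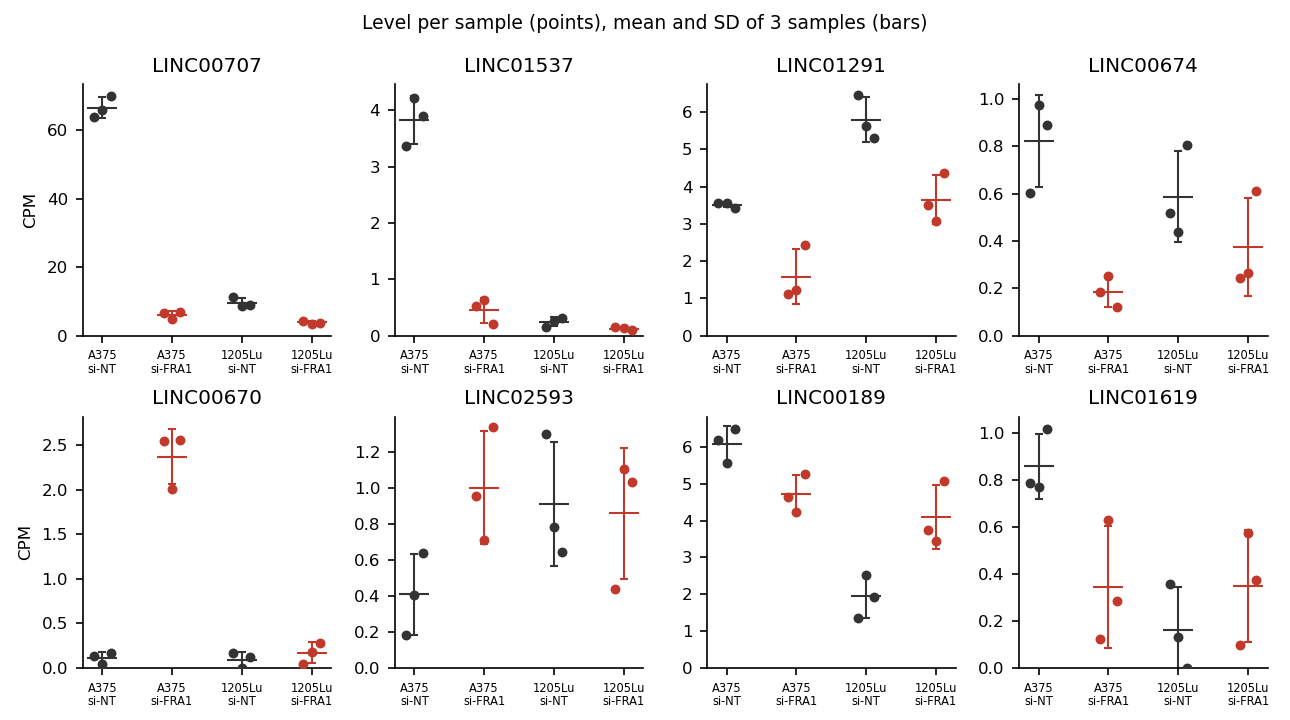
CPM of 8 members in each of the 12 samples (points), with the mean and SD of the 3 samples (bars), on axes that start at 0. LINC00707 and LINC01537 are low in every si-FRA1 sample of A375, LINC00670 is high only there, and LINC00189 has opposite order in A375 and 1205Lu cells.

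LINC01537 showed the next largest decrease in A375 cells. Its gene at 11:72570660-72573229 (plus strand) starts 8845 bp from a start of PDE2A. PDE2A encodes a phosphodiesterase that degrades cyclic nucleotides, and LINC01537 was reported to stabilise its mRNA. The A375 si-NT samples had 3.38, 4.21 and 3.90 CPM and the si-FRA1 samples 0.523, 0.629 and 0.203 CPM. All silenced samples lay below all controls (log2 fold change -3.04 ± 0.30), and the si-NT group of A375 was the only one at the 0.5 CPM threshold. In 1205Lu cells it had 2 to 8 counts per sample and was not tested. PDE2A mRNA had 8.75 ± 0.777 CPM in A375 si-NT and 6.32 ± 0.407 CPM in si-FRA1 samples (SD, n = 3), a log2 fold change of -0.45 that passed the adjusted p (0.00368) but not the fold limit.

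LINC01291 (2:74918148-74938418) and LINC01293 (2:74940258-74942670) are neighbours on the same strand, and both fell in A375 cells. LINC01291, an RNA described in melanoma, was at 3.56, 3.56 and 3.43 CPM in si-NT and 1.11, 1.22 and 2.43 CPM in si-FRA1 samples. LINC01293 was at 3.65, 4.17 and 3.31 CPM and at 1.29, 1.51 and 1.86 CPM. Neither pair of groups overlapped. The log2 fold changes were -1.14 ± 0.26 (adjusted p = 0.000686) and -1.24 ± 0.22 (adjusted p = 5.32e-05, edgeR). In 1205Lu cells the values were -0.71 ± 0.17 (adjusted p = 0.00194) and -0.53 ± 0.15 (adjusted p = 0.00968), below the fold limit, with si-NT means of 5.80 and 6.17 CPM and si-FRA1 means of 3.65 and 4.36 CPM. The call of LINC01291 was lost without si-FRA1 replicate 1 (-0.92) and without si-FRA1 replicate 2 (-0.9991), both short of the fold limit.

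LINC00997, LINC01001, LINC02210 and LINC00265 also fell in A375 cells at moderate levels. LINC00997 (7:32760279-32762924) was at 13.6, 14.5 and 13.5 CPM in si-NT and 5.87, 5.41 and 6.40 CPM in si-FRA1 samples (-1.21 ± 0.11, adjusted p = 1.42e-09, edgeR). LINC01001, near the end of chromosome 11 (11:127204-139612), was at 12.1, 11.2 and 11.9 CPM and at 4.797, 4.74 and 4.18 CPM (-1.33 ± 0.12, adjusted p = 1.21e-09). The samples of each arm were tightly grouped for both RNAs. LINC02210 (17:45620328-45655156) was at 10.96, 10.0 and 12.7 CPM and at 5.26, 4.90 and 5.11 CPM (-1.11 ± 0.12, adjusted p = 5.03e-08). LINC00265 (7:39733430-39793092) was at 2.31, 3.97 and 4.32 CPM and at 1.69, 1.63 and 1.26 CPM (-1.18 ± 0.25, adjusted p = 0.000322). These 4 RNAs share stretches of at least 300 bases at 95% identity or more with transcripts of genes elsewhere, with 17 other genes for LINC00265, 19 for LINC01001, and 1 each for LINC00997 and LINC02210, so reads may have been divided between copies. LINC02210 also overlaps the readthrough gene LINC02210-CRHR1 on its own strand. Such stretches were found for 59 of the 314 members, but not for LINC00707, LINC01537, LINC01291, LINC01293 or LINC00670. Other members named in the text that had them were LINC00174, LINC00467, LINC00665, LINC01116, LINC01160, LINC01347, LINC02334 and LINC02582. LINC01145 and LINC00680 have exons too short under the matched identifier to reach 300 bases, so the search could not find copies of them.

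LINC01521 (22:31346777-31348719) starts 431 bp from PATZ1, a zinc finger gene transcribed in the opposite direction. It was at 2.59, 2.47 and 1.65 CPM in A375 si-NT and 1.17, 0.922 and 1.18 CPM in si-FRA1 samples (-1.01 ± 0.28, adjusted p = 0.00464, edgeR), just past the fold limit. This call was lost without si-FRA1 replicate 2 (-0.90), si-NT replicate 1 (-0.89) or si-NT replicate 2 (-0.93). PATZ1 had 32.5 ± 1.29 and 29.2 ± 1.095 CPM (adjusted p = 0.0598). LINC01424 starts 57 bp from UBE2G2, which encodes a ubiquitin-conjugating enzyme of protein quality control. It had 13, 12 and 14 counts in si-NT and 5, 5 and 4 in si-FRA1 samples (-1.64 ± 0.55). LINC01424 entered through 1 group alone, so its omissions are a description. Its call held in 2 of the 6 omissions of a sample and was lost without a filter on low counts. UBE2G2 mRNA had 75.5 ± 1.85 and 49.1 ± 1.41 CPM in A375 cells (-0.60, adjusted p = 2.66e-11), below the fold limit. Of the 26 members with a protein-coding start within 2 kb in the opposite direction, these were the 2 that were called, beside 29 of all 314 members called in either line.

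The remaining decreases in A375 cells rested on means under 20 counts. LINC00674 had 13, 24 and 21 counts in si-NT and 6, 6 and 3 in si-FRA1 samples (-2.10 ± 0.51, adjusted p = 0.00143, edgeR). LINC01619, which shares its strand and region with the antiproliferative gene BTG1, had 17, 19 and 24 and then 4, 15 and 7 counts. LINC01979 had 16, 19 and 18 and then 8, 10 and 8 counts, and LINC01415 had 11, 15 and 11 and then 4, 8 and 4. The groups of each did not overlap. The calls of LINC01619, LINC01979 and LINC01415 each held in only 1 of the 6 omissions of a sample and were lost under other settings. LINC01619 and LINC01415 entered through 1 group alone, so for them this is a description.

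Among RNAs that rose in A375 cells, LINC00670 changed most. Its gene is at 17:12549764-12642854 (plus strand), and its nearest annotated start lies 75255 bp from a start of MYOCD. The distance from the end of the gene to MYOCD was not measured. MYOCD encodes myocardin, a coactivator of serum response factor in smooth and cardiac muscle. LINC00670 had 3, 1 and 4 counts in A375 si-NT and 83, 48 and 63 counts in si-FRA1 samples, or 0.116 ± 0.0674 and 2.37 ± 0.313 CPM (SD, n = 3). The log2 fold change was 4.34 ± 0.44 (SE), with a control level near the detection limit, and LINC00670 entered only through this si-FRA1 group. MYOCD mRNA rose alongside, from 1.19 ± 0.0844 to 11.3 ± 0.510 CPM (log2 fold change 3.27 ± 0.15, adjusted p = 1.16e-14). In 1205Lu cells LINC00670 had 0 to 6 counts in all samples, and MYOCD had 0.690 ± 0.108 and 0.415 ± 0.147 CPM (adjusted p = 0.216).

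LINC01929 and LINC01415 lie on either side of TCF4, which encodes a basic helix-loop-helix factor, and were called in opposite directions. LINC01929 (18:55105904-55124306) had 6, 6 and 2 counts in A375 si-NT and 48, 21 and 37 in si-FRA1 samples (2.68 ± 0.48), the only group in which it reached the threshold, whereas TCF4 itself had 35.9 ± 2.76 and 37.1 ± 1.36 CPM (adjusted p = 0.398). LINC02475 was at 3.38, 2.43 and 3.09 CPM in si-NT and 6.33, 7.71 and 8.47 CPM in si-FRA1 samples (1.36 ± 0.16, adjusted p = 1.97e-07). LINC02246 was at 0.740, 0.932 and 0.466 CPM and at 1.38, 1.93 and 2.35 CPM (1.41 ± 0.35, adjusted p = 0.00147). LINC02377, without a count in any 1205Lu sample, was at 1.34, 1.86 and 0.721 CPM and at 3.26, 2.68 and 3.12 CPM (1.23 ± 0.27, adjusted p = 0.000569), with 0.93 and no call when si-NT replicate 3 was left out. All silenced samples lay above all controls for each of these RNAs.

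The other 5 increases in A375 cells had means under 20 counts. All of these RNAs but LINC02593 entered through 1 group alone, so their counts and omissions are a description. LINC01594 had 0, 7 and 2 counts in si-NT and 18, 20 and 15 in si-FRA1 samples, LINC02015 had 3, 6 and 3 and then 24, 24 and 13, and LINC01508 had 6, 8 and 6 and then 49, 12 and 24 (call lost without si-FRA1 replicate 1). LINC02163, named NIHCOLE in GENCODE v44, had 6, 6 and 11 and then 19, 21 and 18 counts, and its call held in only 1 of the 6 omissions. LINC02593 (1:916865-921016, minus strand) had 4, 10 and 15 and then 31, 17 and 33 counts (1.29 ± 0.46, adjusted p = 0.0215, edgeR), and held in 2. It starts 2907 bp from SAMD11, transcribed in the opposite direction, whose mRNA rose in both lines, from 0.678 ± 0.138 to 2.15 ± 0.657 CPM in A375 (1.70 ± 0.33, adjusted p = 0.000125) and from 0.506 ± 0.214 to 1.82 ± 0.533 CPM in 1205Lu cells (1.82 ± 0.38, adjusted p = 0.000647). LINC02593 itself had 0.910 ± 0.345 and 0.858 ± 0.366 CPM in 1205Lu si-NT and si-FRA1 samples, which overlapped.

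In 1205Lu cells, LINC00189 rose. It starts 34 bp from BACH1 on the same strand and overlaps it, and BACH1 encodes a heme-regulated transcriptional repressor. LINC00189 was at 1.36, 2.53 and 1.93 CPM in si-NT and 3.74, 3.44 and 5.08 CPM in si-FRA1 samples (1.06 ± 0.24, adjusted p = 0.0011, edgeR). In A375 cells the values were 6.20, 5.55 and 6.48 CPM and 4.64, 4.23 and 5.27 CPM (-0.34 ± 0.14, adjusted p = 0.0536). BACH1 mRNA had 177 ± 4.21 and 252 ± 0.842 CPM in 1205Lu cells (0.48 ± 0.02, adjusted p = 2.95e-12) and 64.2 ± 0.886 and 58.8 ± 0.979 CPM in A375 cells (-0.10 ± 0.04, adjusted p = 0.0421). LINC00189 had 0.85 without si-NT replicate 1 and 0.87 without si-FRA1 replicate 3, below the fold limit. How the counting divided reads between these overlapping genes was not tested.

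The other calls in 1205Lu cells were weaker. LINC00898 had 41, 31 and 68 counts in si-NT and 14, 27 and 17 in si-FRA1 samples (-1.04 ± 0.36, adjusted p = 0.0246, edgeR), and LINC01909 had 14, 14 and 17 and then 1, 5 and 3 (-2.05 ± 0.61). LINC00052 had 14, 14 and 6 and then 26, 19 and 29 counts (1.37 ± 0.44), and LINC02620 had 11, 12 and 1 and then 21, 15 and 20 (1.46 ± 0.56). The groups of each RNA did not overlap. Of the 6 omissions, LINC01909 held in 4, LINC00898 and LINC00052 in 3 and LINC02620 in 1. For LINC01909, LINC00052 and LINC02620, which entered through 1 group alone, this is a description. Without si-NT replicate 3, LINC00898 was at -0.61 (adjusted p = 0.247).

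Whether the response differed between the lines was tested over all 12 samples for 308 members. FOSL1 itself fell further in A375 cells, with log2 fold changes of -4.01 in A375 and -2.84 in 1205Lu cells. That difference was 1.19 (adjusted p = 1.24e-16, edgeR interaction). How the unequal depth of silencing bears on the differences of members was not tested. The difference was called for 18 members, beside 5.09% of all genes, and 29 passed the adjusted p alone, beside 31.9% of all genes. Among the 18, LINC00670, LINC01537, LINC01929 and LINC02015 entered only through the A375 group in which they were high. The count therefore supports nothing about the class. Of the 18, 11 had a mean under 20 counts in 1 of the lines, and the other 7 were LINC00707, LINC00174, LINC00189, LINC00265, LINC00997, LINC01001 and LINC02604. LINC02604 was at 7.35 ± 0.465 and 3.98 ± 0.357 CPM in A375 si-NT and si-FRA1 samples and at 31.6 ± 1.13 and 40.6 ± 1.54 CPM in 1205Lu samples (SD, n = 3), so it was lower with silencing in A375 (-0.86 ± 0.14, adjusted p = 1.61e-05, edgeR) and higher in 1205Lu cells (0.33 ± 0.05, adjusted p = 4.8e-05). LINC00174, nearby on chromosome 7 and described as raised in several cancers, showed the same order, with -0.36 ± 0.12 in A375 (adjusted p = 0.0129) and 0.63 ± 0.08 in 1205Lu cells (adjusted p = 1.63e-06). LINC01001 had 0.32 ± 0.12 in 1205Lu cells (adjusted p = 0.0377), opposite to its fall in A375 cells, whereas LINC00997 and LINC00265 had -0.10 ± 0.09 and 0.01 ± 0.18 there (adjusted p = 0.406 and 0.963).

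**Figure D4:**
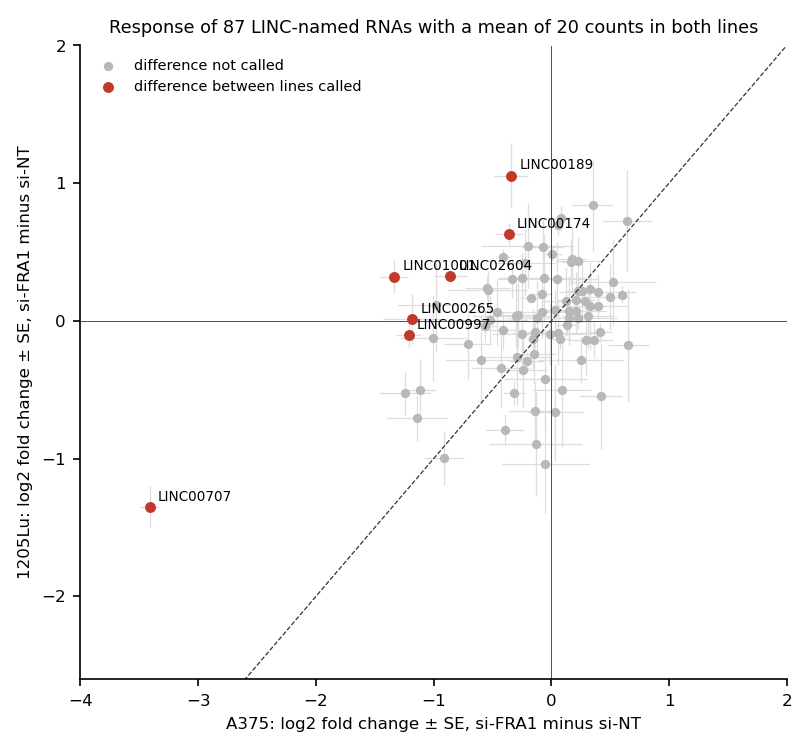
Log2 fold change with SE in A375 (x axis) and 1205Lu cells (y axis) for the 87 members with a mean of at least 20 counts in both lines, with the dashed line at equal response. The 7 members whose response differed between the lines are in red, and all of them lie above the dashed line.

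Short lists of LINC genes known from other work were counted as a description. Of 8 LINC genes described in melanoma 5 were members, and 1 of the 5 tested, LINC01291, was called lower in A375 cells, beside 2.79% of all genes. By adjusted p alone LINC00888 was also higher there (0.39 ± 0.13, adjusted p = 0.0131, edgeR), beside 25.7% of all genes. In 1205Lu cells 2 of 3 tested were lower by adjusted p alone, beside 19.9% of all genes. The median log2 fold changes were -0.40 and -0.71, beside -0.0026 and -0.0048 for all genes tested. LINC01116, on this list, was at 13.9 ± 0.630 and 8.2 ± 1.19 CPM in 1205Lu si-NT and si-FRA1 samples (-0.79 ± 0.11, adjusted p = 8.79e-06, edgeR), and at 4.82 ± 0.415 and 3.63 ± 0.564 CPM in A375 samples (-0.40 ± 0.17, adjusted p = 0.0521). Of 22 LINC genes described as raised in several cancers 16 were members, and LINC00707 was the only call among 16 tested in A375 and 13 tested in 1205Lu cells, with median log2 fold changes of 0.15 and -0.03. Of all genes, 2.79% and 2.04% were called lower in these lines. By adjusted p alone 2 of the 16 were higher and 2 lower in A375 cells, beside 25.7% and 25.1% of all genes. In 1205Lu cells 3 of the 13 were higher and 2 lower, beside 20.6% and 19.9%. Of 10 described as encoding a small peptide 2 were members, LINC00467 and LINC00665. LINC00665 was at 58.9 ± 1.07 and 59.4 ± 0.711 CPM in A375 si-NT and si-FRA1 samples (0.04 ± 0.04, adjusted p = 0.504), and LINC00467 at 5.07 ± 0.704 and 6.38 ± 1.3 CPM (0.36 ± 0.16, adjusted p = 0.0583), and the groups of both overlapped.

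Cut&Run was used to ask at which of these RNAs FRA1 was found near a start. A peak of the 54563 consensus peaks counted as enriched in a line when no FRA1 sample had fewer than 10 counts or fewer than 4 times the IgG count to which 1 was added, and it belonged to a member when an annotated start lay within 3 kb. With 1 IgG sample per line there is no test. The totals in peaks were 3354095 to 5316527 counts in A375 FRA1 samples and 383994 in IgG, but only 583750 to 897407 and 314569 in 1205Lu cells, so the 2 lines cannot be compared in absolute number. The full depth of these libraries is not known. In 1205Lu cells, FRA1 replicates 2 and 3 differed little more than counting noise allows (chi-square per degree of freedom 1.07, against 2.18 and 1.83 for the other pairs), and 24 or 23 members had an enriched peak when replicate 3 or 2 was left out, but 36 without replicate 1.

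An enriched peak lay near 111 members in A375 (35.4%) and 23 in 1205Lu cells (7.32%), with 20 in both. With all samples scaled to the same total in peaks, only 5 and 14 members had such a peak. Without scaling, the shares were 24.8% and 3.26% for other long non-coding RNA genes of the same level and 33.5% and 4.63% for protein-coding genes. A gene with more annotated starts has more chances of a peak, and the number of starts was not matched between these classes. In A375 cells 9 of the 24 called members had such a peak (37.5%), as did 76 of the 205 that were tested and not called (37.1%). By direction these were 7 of the 14 that fell and 2 of the 10 that rose. In 1205Lu cells it was 3 of the 6 called members and 18 of the 210 not called (8.57%). The called members include those that entered only through the group in which they were high. In A375 cells these were 6 that rose and 4 that fell, and in 1205Lu cells 2 and 1. LINC01537, LINC01619 and LINC00670 in A375 and LINC00052 in 1205Lu cells were among them and had a peak. These counts, and those of heptamers by direction below, therefore support nothing about called members. The AP-1 heptamer, in either form, lay within 100 bp of the centre in 28.6% of all consensus peaks and 22.8% of the 263 peaks near members. Among enriched peaks the shares were 34.0% of all and 30.2% of member peaks in A375, and 30.4% and 50.0% (14 of 28) in 1205Lu cells. Anywhere in an enriched A375 peak, it was found for 6 of the 7 members that fell and had such a peak, 1 of the 2 that rose and 52 of the 76 not called. In promoter windows of RefSeq, which start 250 bases before each start, either heptamer was present in 4.95% of 35116 windows. Counted per gene, with a hit in any of its windows, it was present for 20 of 206 matched members (9.71%). A gene with several windows has more chances of a hit, so these shares cannot be compared.

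The peak over the start of LINC00707 had the highest ratio of FRA1 to IgG counts of the 263 peaks near members in A375 cells and the sixth highest in 1205Lu cells. It had 312, 436 and 344 counts in the A375 FRA1 samples and 5 with IgG, and 34, 80 and 62 counts in 1205Lu cells and 3 with IgG. It was also among 5 member genes whose peak stayed enriched in A375 when all samples were scaled to the same total in peaks. LINC01537 had a peak 74 bp from its start with 91, 160 and 147 counts in A375 FRA1 samples and 16 with IgG, and 8, 4 and 2 against 8 in 1205Lu cells, in which its RNA was scarcely detected. At the start of LINC01291, the counts were 145, 254 and 236 against 12 in A375 and 30, 60 and 55 against 13 in 1205Lu cells, the latter below the limit. LINC02210 had the lowest of these peaks, with 20, 26 and 24 counts against 4 in A375 cells. All 4 peaks were thus above IgG in each A375 FRA1 sample, and only that of LINC00707 was enriched in 1205Lu cells. With samples scaled to the same total in peaks, those of LINC01537, LINC01291 and LINC02210 were not enriched in A375 cells.

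**Figure D5:**
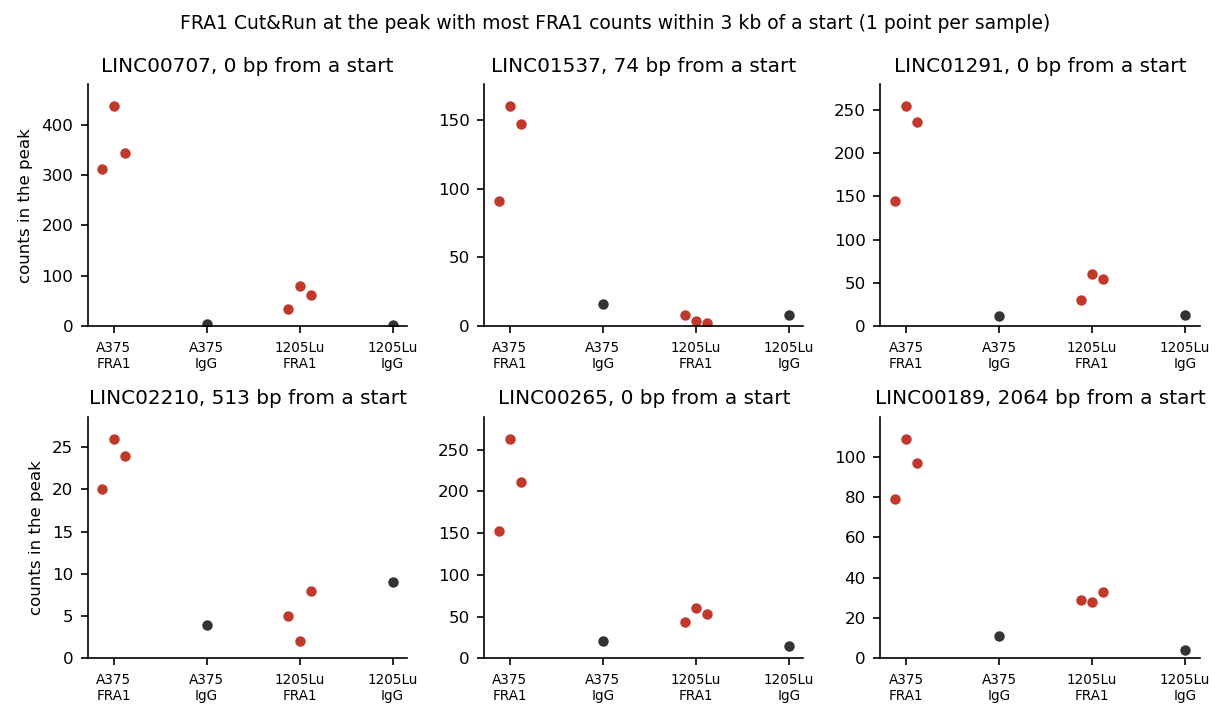
Counts in the peak with most FRA1 counts within 3 kb of a start of 6 called members, 1 point per Cut&Run sample and on axes that start at 0 and differ between panels. The A375 FRA1 samples lie above IgG in every panel, and in 1205Lu cells those of LINC01537 and LINC02210 do not.

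The following stretches of the peaks of LINC01537 and LINC01291 hold the heptamer closest to the peak centre, or both heptamers where they lie close together, and are shown because they are candidate AP-1 sequences at starts of RNAs that fell in A375 cells. They are read 5′ to 3′ on the plus strand of GRCh38, which is also the strand of the RNA, with each TGACTCA or TGAGTCA in capitals. That of LINC01537 (chr11:72570069-72570230) holds both of its peak, the nearer 493 bp from the start. That of LINC01291 (chr2:74917792-74917918) holds 1 of 2, 293 bp from a start.
LINC01537: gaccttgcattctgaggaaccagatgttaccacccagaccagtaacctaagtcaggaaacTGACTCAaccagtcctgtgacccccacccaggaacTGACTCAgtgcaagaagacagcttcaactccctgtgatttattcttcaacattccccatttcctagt
LINC01291: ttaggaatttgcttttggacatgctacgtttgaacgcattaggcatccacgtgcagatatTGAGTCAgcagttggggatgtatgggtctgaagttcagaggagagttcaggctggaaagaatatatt

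LINC00265 had 152, 263 and 211 counts against 21 over its start in A375 cells, with 2 heptamers in the peak. LINC01619 had 2 enriched peaks, with 85, 109 and 86 counts against 9 at a start and 103, 157 and 110 against 5 at a distance of 1465 bp, and LINC01521 had 22, 28 and 41 against 4 with no heptamer. For RNAs that rose in A375 cells, the 2 peaks near starts of LINC00670 had 39, 61 and 58 counts and 56, 93 and 82 counts against 7 each, without a heptamer in either, and LINC02377 had a peak over its start with 1 heptamer. None of the peaks just given stayed enriched in A375 cells with samples scaled to the same total in peaks. LINC00997, LINC01001, LINC01293, LINC00674 and LINC02475, all called in A375 cells, had no enriched peak within 3 kb of a start.

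In 1205Lu cells LINC00189 had an enriched peak 2064 bp from a start (21:29196101-29197020) with 29, 28 and 33 counts against 4, and with 79, 109 and 97 against 11 in A375 cells. With samples scaled to the same total in peaks, that peak was enriched in neither line. BACH1 starts 34 bp from a start of LINC00189 on the same strand, so the peak cannot be assigned to 1 of these genes. LINC00189 RNA rose upon silencing in 1205Lu cells, and the A375 values did not pass the test. The stretch around the heptamer of this peak (chr21:29196472-29196598, plus strand) is shown for comparison with those above.
LINC00189: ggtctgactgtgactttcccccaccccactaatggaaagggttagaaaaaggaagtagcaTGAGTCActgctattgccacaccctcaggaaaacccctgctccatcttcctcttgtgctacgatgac

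LINC00052, which rose in 1205Lu cells, had an enriched peak in that line (16, 25 and 19 counts against 1) and 0, 1 and 3 counts against 4 in A375 cells, in which its RNA had at most 5 counts. Strong FRA1 peaks were also found at members that were not called. The highest ratio in 1205Lu cells was at LINC00511, with 181, 291 and 277 counts against 7, and 393, 594 and 497 against 15 in A375 cells, in a peak without a heptamer. LINC00511 had 11.2 ± 0.558 CPM in A375 si-FRA1 samples (log2 fold change -0.17 ± 0.09, adjusted p = 0.131, edgeR) and 207 ± 0.888 CPM in 1205Lu si-FRA1 samples (0.17 ± 0.03, adjusted p = 1.74e-05). LINC01119 had the most counts of any enriched peak shown here, 708, 982 and 859 against 19 in A375 and 194, 314 and 257 against 14 in 1205Lu cells, while its RNA was too low to test in A375 and had 1.16 ± 0.233 and 1.09 ± 0.403 CPM in 1205Lu cells (adjusted p = 0.791). At LINC02577, separate peaks were occupied in the lines: 224, 388 and 298 counts against 16 in A375 but 17, 14 and 10 against 8 in 1205Lu cells over 1 start, and 154, 315 and 273 against 15 in 1205Lu but 19, 44 and 17 against 13 in A375 cells over another. Its RNA had 1.12 ± 0.398 and 0.571 ± 0.433 CPM in A375 cells, which overlapped.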

How the data were processed

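RNA-seq was analysed in 12 samples and Cut&Run in 8. For RNA-seq, the authors removed adapters with cutadapt 1.8.1, aligned reads to GRCh38 with STAR 2.7.7a and estimated gene counts with RSEM 1.3.0, and deposited these expected counts as whole numbers, not normalized. The kit marks strand, but the strand setting of the counting is not given in the sources used here, so antisense and overlapping genes are uncertain. For Cut&Run, the authors aligned with Bowtie2 2.4.1, called peaks with MACS2 2.1.1.20160309 and deposited raw counts per consensus peak. It is not stated if replicates were pooled for peak calling, and the labels name no batch.

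The deposited counts were fitted per cell line with edgeR 4.0.16 in R 4.3.3 (filterByExpr, TMM, quasi-likelihood test) over all genes, and over all 12 samples for the difference between lines. SE is the log2 fold change divided by the square root of F. CPM uses column totals. DESeq2 1.42.0, upper-quartile scaling, other filters, a replicate block and omission of each sample were alternatives, and the fit was tested on simulated data. Coordinates, starts, strands and exon lengths are from GENCODE v44 (GRCh38), copies were searched with BLAST 2.17.0, and promoter windows are from RefSeq. The sequences of some peaks are not reported here.

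Members, lists and tests were chosen with earlier results of these data known. By the naming rule, the text names the 8 largest changes in each direction per line among called members with non-overlapping groups and a mean of at least 20 counts, members called in both lines, the 6 largest differences between lines in each direction, the 8 most abundant per kb, 3 on each side of the threshold, called list members, called members with an enriched peak in both lines, up to 5 members found in 1 line alone, and head-to-head neighbours. The other called members, LINC00174, LINC02604, LINC00511, LINC01116, LINC01119, LINC02577 and the other neighbouring genes were named after their values were seen.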

Additional observations from a re-analysis of the deposited data

Results flagged for a closer look

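For 18 members the response to FRA1 silencing differed between the cell lines by the interaction test over 12 samples (1205Lu minus A375, log2 scale). Each such difference is given here, with sample counts for some of the members. FOSL1 itself fell further in A375 cells, as given above. Among members with a mean of at least 20 counts in both lines, the difference was 2.07 for LINC00707, 1.67 for LINC01001, 1.41 for LINC00189, 1.21 for LINC00265, 1.198 for LINC02604, 1.12 for LINC00997 and 1.00 for LINC00174. That of LINC00174 was below the limit of 1 in 5 of the 12 omissions of a sample (lowest value 0.92), namely without 1205Lu si-FRA1 replicate 1 or 2, 1205Lu si-NT replicate 1, A375 si-FRA1 replicate 1 or A375 si-NT replicate 2, and the other 6 held in all 12.

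The others had few counts in 1 line. LINC02085, named RDUR in GENCODE v44, had a difference of -5.16 but only 8 counts in 1 of the 1205Lu samples and 0 in the other 5, so the size of the value depends on how the fit treats zeros. LINC02015 differed by -3.70, with 18, 8 and 11 counts in 1205Lu si-NT and 7, 2 and 1 in si-FRA1 samples, opposite to its rise in A375 cells. LINC00670 differed by -3.62 and LINC01929 by -2.84, both with at most 6 counts in every 1205Lu sample. LINC01579 differed by -2.57 (17, 11 and 1 against 1, 4 and 0 counts in 1205Lu cells), LINC01695 by -2.37 (16, 16 and 7 against 2, 5 and 2), LINC01630 by -2.05 (31, 24 and 19 against 12, 5 and 13) and LINC00939 by -1.73 (19, 19 and 10 against 6, 10 and 3). On the positive side, LINC00431 differed by 2.63 (11, 8 and 20 against 1, 3 and 3 counts in A375 cells), LINC01537 by 2.07 and LINC00702 by 1.90 (32, 63 and 55 against 42, 19 and 26 in A375 cells). For LINC00702 the line with few counts was 1205Lu, whose counts are not shown here. Of the 12 omissions of a sample, the call was lost in 11 for LINC01630, 9 for LINC00939, 8 for LINC01537, 7 each for LINC00702 and LINC02085, 6 for LINC01695, 3 for LINC00431, 2 for LINC01579 and 1 each for LINC00670 and LINC01929, and it held in all 12 for LINC02015. LINC00670, LINC01537, LINC01929 and LINC02015 entered only through the A375 group in which they were high. A difference was thus built into their choice, and their values and omissions are a description. Which other members with few counts entered through 1 group alone is not given here, so their differences and omissions are likewise only a description.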

How the results depend on the processing

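The main limit is depth: the tested members had a median of 36.2 counts per sample in A375 and 22.8 in 1205Lu cells, with median standard errors of 0.313 and 0.377 on the log2 scale. No fold change of a called member changed sign in the line of its call. In A375 cells the 10 higher and 14 lower members became 27 and 33 without the fold limit and 4 and 9 with a minimum mean of 1 CPM, and ranged from 7 to 10 and 10 to 14 when samples were left out. In 1205Lu cells the 3 higher members became 20 without the fold limit, 1 with a minimum mean of 1 CPM and 0 to 5 when samples were left out (0 without si-FRA1 replicate 3, 1 without replicate 1 and 5 without replicate 2). The 3 lower members became 14 without the fold limit, 6 with all 12 samples in 1 fit, 6 without a filter on low counts, and 4 to 8 when samples were left out, 8 without si-FRA1 replicate 2. The cause of the gains was not tested. The 18 differences between lines became 29 without the limit and 12 to 16 when samples were left out. With the replicate block, A375 cells gave 9 higher and 12 lower, 1205Lu cells 2 and 4, and the interaction 16. Samples with the same number deviated together with correlations of 0.0493, 0.0231 and 0.0430 in A375 and -0.028, -0.0033 and -0.022 in 1205Lu cells, so the numbers were not taken as pairs. The 314 members became 192 at 1 CPM and 550 at 0.25 CPM. Members with an enriched peak went from 111 in A375 to 66 at 8 times IgG and 5 with samples scaled to the same total in peaks, and from 23 in 1205Lu to 53 at 2 times, 9 at 8 times, 14 when scaled and 23 to 36 when a FRA1 sample was left out, 36 without replicate 1. Scaling raises the IgG sample, whose total in peaks is the lowest of each line.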
